A study of Homo sapiens with 12 samples.

Results

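The 42 genes described here encode the machinery that copies DNA in S phase, together with the cyclins that open that phase. They were chosen by name, as factors of origin licensing, helicase activation, the sliding clamp, the replicative polymerases, strand joining and deoxynucleotide supply. Cyclins E1 and E2 and the translesion polymerase gene REV3L were added. The choice was made with earlier results of these data known, so calls among the 42 are no independent support. Each of the 42 matched 1 row of the 19305 RefSeq transcripts counted in the files. The study used ribosome profiling, in which nuclease-resistant mRNA pieces covered by ribosomes are sequenced, so a gene's count reflects both how much of its mRNA is present and how heavily it is translated. 12 libraries were read in 6 groups of 2, a set 1 and a set 2 library in each. HEK293T, a line from human embryonic kidney, gave 8 libraries, all from cells treated with sodium arsenite, an oxidative stressor. They carry an eIF2A siRNA or a control siRNA label and a CBP80 or an eIF4E immunoprecipitation (IP) label. eIF2A is a factor that can bring initiator tRNA to ribosomes, CBP80 belongs to the nuclear cap-binding complex and eIF4E binds the cap in the cytoplasm. H9, a line of human embryonic stem cells, gave the other 4, with eIF2A shRNA or control shRNA. Their labels name neither arsenite nor an IP. Whether a set is a culture of its own is not stated, and p-values therefore cover only the spread of these libraries, which may be technical.

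DNA replication starts at origins, where the origin recognition complex, CDC6 and CDT1 load the ring-shaped MCM helicase onto DNA in G1. Cyclin E with its kinase partner then helps CDC45 and the GINS complex to join the ring, and the active helicase unwinds DNA for DNA polymerase alpha with primase, which lays primers, and for polymerases epsilon and delta, which extend them along the PCNA clamp. Transcription of many of these genes is driven by E2F factors. HEK293T and embryonic stem cells both cycle rapidly, and stem cells are known for a short G1.

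Promoter sequences are shown because E2F control is the best known feature that this gene family shares, and because the genes that passed the test below can be set beside it. RefSeq's table (build GRCh38.p14, used for sequence only, since the counts use hg19) held a promoter of 300 bases, 250 before and 50 after the start, for 36 of the 42 genes. MCM4, MCM5, GINS4, RPA2, RPA3 and CCNE2 were not matched. The E2F core letters TTCCCGC or TTGGCGC stood on either strand in 22 of the 36 promoters (61.1%), against 1947 of 15843 promoters of protein-coding genes (12.3%). The CCAAT box, with the letters CCAAT on either strand, stood in 22 of 36 (61.1%), against 36.4% of all promoters. TTTGAA or TTCGAA, the cell cycle homology element of mitotic genes, stood in 2 of 36 (5.56%), against 13.5%. A promoter counted once however many matches it held, and overlapping matches were allowed. Below are windows of 100 bases that end at or before the gene's start, written 5′ to 3′ along the gene, with E2F cores in capitals. MCM3 (chr6:52284743-52284842, minus strand), CDT1 (chr16:88803689-88803788, plus strand), ORC1 (chr1:52404424-52404523, minus strand) and PCNA (chr20:5126629-5126728, minus strand) are examples that hold a core, from the licensing factors and the clamp. CCNE1 (chr19:29811891-29811990, plus strand), CDC45 (chr22:19479820-19479919, plus strand) and REV3L (chr6:111483712-111483811, minus strand) are the genes that passed the test in HEK293T.
MCM3: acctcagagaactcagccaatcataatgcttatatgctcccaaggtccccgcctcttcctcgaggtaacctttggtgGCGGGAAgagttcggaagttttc
CDT1: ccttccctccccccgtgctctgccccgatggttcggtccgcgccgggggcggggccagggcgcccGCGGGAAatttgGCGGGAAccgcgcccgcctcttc
ORC1: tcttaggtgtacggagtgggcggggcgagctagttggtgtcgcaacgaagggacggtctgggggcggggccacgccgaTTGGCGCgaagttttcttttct
PCNA: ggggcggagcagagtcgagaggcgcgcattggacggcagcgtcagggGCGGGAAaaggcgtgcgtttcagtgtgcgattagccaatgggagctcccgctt
CCNE1: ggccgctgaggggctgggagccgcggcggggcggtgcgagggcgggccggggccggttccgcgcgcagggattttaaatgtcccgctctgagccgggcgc
CDC45: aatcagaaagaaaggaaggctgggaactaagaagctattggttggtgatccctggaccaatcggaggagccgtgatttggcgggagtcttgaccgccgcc
REV3L: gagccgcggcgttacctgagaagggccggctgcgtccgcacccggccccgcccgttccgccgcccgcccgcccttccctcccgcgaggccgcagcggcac
The CDT1 window held 2 cores and those of MCM3, ORC1 and PCNA held 1 each. The 300-base promoters of CCNE1, CDC45 and REV3L held none of these letters, which says nothing on whether an E2F factor binds them. Only the exact letters were searched, so near variants stay in lower case, such as ttggcggg in the CDC45 window. Promoters of genes that did not pass also lacked the exact letters, namely MCM2, MCM10, ORC2, ORC6, RFC5, POLA2, POLD1, POLD2, PRIM2, FEN1 and RRM2. A core was thus absent from genes of both kinds, and whether it goes with passing was not tested. The genes that passed are too few to tell.

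Depth in coding sequences was 4331459 to 5775177 reads in HEK293T and 937990 to 1878700 in H9. Levels are given as CPM, reads of a gene per 1000000 coding reads of its library, where the upper limit for a gene without reads (3 reads) comes to between 0.519 and 3.2 CPM. Within a siRNA label and set, CBP80- and eIF4E-labelled libraries differed by about their sampling noise (chi-square per degree of freedom 1.01 to 1.03), against 3.95 to 5.52 between sets of 1 group. They were therefore summed and counted once, which left 4 HEK293T libraries. H9 libraries of a set lay at 1.04 and 1.07 between shRNA labels, and those of a label at 2.75 and 3.13 between sets. EIF2A itself stood at 96 CPM (set 1) and 46.7 CPM (set 2) with the eIF2A siRNA label, against 83.2 and 83.5 CPM with control siRNA. It was thus lower in set 2 and not in set 1, and its fitted change was -0.33 ± 0.36 in log2 units (SE, edgeR adjusted p = 0.643). With the eIF2A shRNA label in H9 it stood at 110.2 and 68.2 CPM, against 103.4 and 60.9 CPM in control. Directions below are therefore between libraries labelled eIF2A siRNA or shRNA and control, not between cells with shown loss of eIF2A. Reads placed once but outside coding sequences took 51 and 51.1% in set 1, and 42.2 and 42.4% in set 2, of libraries labelled eIF2A siRNA, against 39.9 and 40.1%, and 35.2 and 35.3%, in control. Their part in the changes below was not tested. Of the pluripotency markers, LIN28A was at 378.5 to 518.4 CPM in H9 and 0 in the summed HEK293T libraries, POU5F1 was listed at 0 in all 12 libraries, and the kidney marker PAX2 was at 0.6 to 1.7 CPM in HEK293T.

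In arsenite-treated HEK293T, cyclin E1 and REV3L had more footprints in libraries labelled eIF2A siRNA than in control, and CDC45 had fewer. At an adjusted p under 0.05 in the quasi-likelihood test of edgeR, these 3 of 42 genes passed, 2 higher and 1 lower. Of all 12331 genes tested 12.4% passed, 6.15% higher and 6.29% lower, so in this fit the share among the replication genes was not above the background. CCNE1, which encodes the cyclin that drives entry into S phase, stood at 35.5 CPM in set 1 and 29.1 CPM in set 2 with the eIF2A siRNA label, against 18.5 and 16.9 CPM with control siRNA. Both libraries lay above both controls. The single libraries behind these sums ranged from 27.9 to 37.5 CPM with the eIF2A siRNA label and from 16.4 to 20.4 CPM in control. Those within a sum differ by about sampling noise and are no further replicates. The fitted change was 0.77 ± 0.16 in log2 units (SE, edgeR adjusted p = 0.000615), a 1.71-fold rise. Its paralog CCNE2, which encodes cyclin E2 and shares its kinase partner, stood at 24.4 and 27.9 CPM with the eIF2A siRNA label, against 20.4 and 19.2 CPM in control. Its summed libraries did not overlap either, but its change of 0.32 ± 0.16 on the log2 scale did not pass (edgeR adjusted p = 0.194).

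REV3L encodes the polymerase subunit of Pol zeta, which copies past damaged bases and is not part of the normal replication fork. It stood at 113.6 CPM in set 1 and 76 CPM in set 2 with the eIF2A siRNA label, against 58 and 40.8 CPM with control siRNA. Set 1 lay above set 2 under both labels, and both eIF2A siRNA libraries lay above both controls. The fitted change was 0.84 ± 0.15 in log2 units (SE, edgeR adjusted p = 9.9e-05), a 1.79-fold rise. CDC45, the factor that joins the MCM ring to GINS in the active helicase, stood at 90.1 and 94.5 CPM with the eIF2A siRNA label, against 131.2 and 120.8 CPM in control. The groups did not overlap, and the fitted change was -0.53 ± 0.14 in log2 units (SE, edgeR adjusted p = 0.00459), which is 0.69 times the control level. These calls depended on single libraries. Without the set 2 control, which leaves 1 control library and takes the spread from the pair labelled eIF2A siRNA, none of the 42 genes passed (0.588% of all genes did), with CCNE1 at 0.73 (edgeR adjusted p = 0.0918), REV3L at 0.62 (0.127) and CDC45 at -0.58 (0.141). The share of all genes that passed also moved with the setting. It was 12.6% with RLE scaling, 8.37% with library sizes alone, 9.05% with no filter, 15.6% at a mean count of at least 50, 5.96% in DESeq2, and 7.5% and 9.5% with CBP80- or eIF4E-labelled libraries alone. It was 24.3% with the set as a block and 22.9% with 8 separate libraries, where 13 of the 42 genes passed in each. With the block, 3 of the 42 were higher and 10 lower, where 11.9% and 12.4% of all genes were. Without the set 1 control 7.78% passed, without the set 1 or set 2 library labelled eIF2A siRNA 2.28% and 16.5%. CDC45 also did not pass without the set 1 control (-0.49, edgeR adjusted p = 0.0843) or without the set 1 library labelled eIF2A siRNA (-0.46, 0.097).

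**Figure D1:**
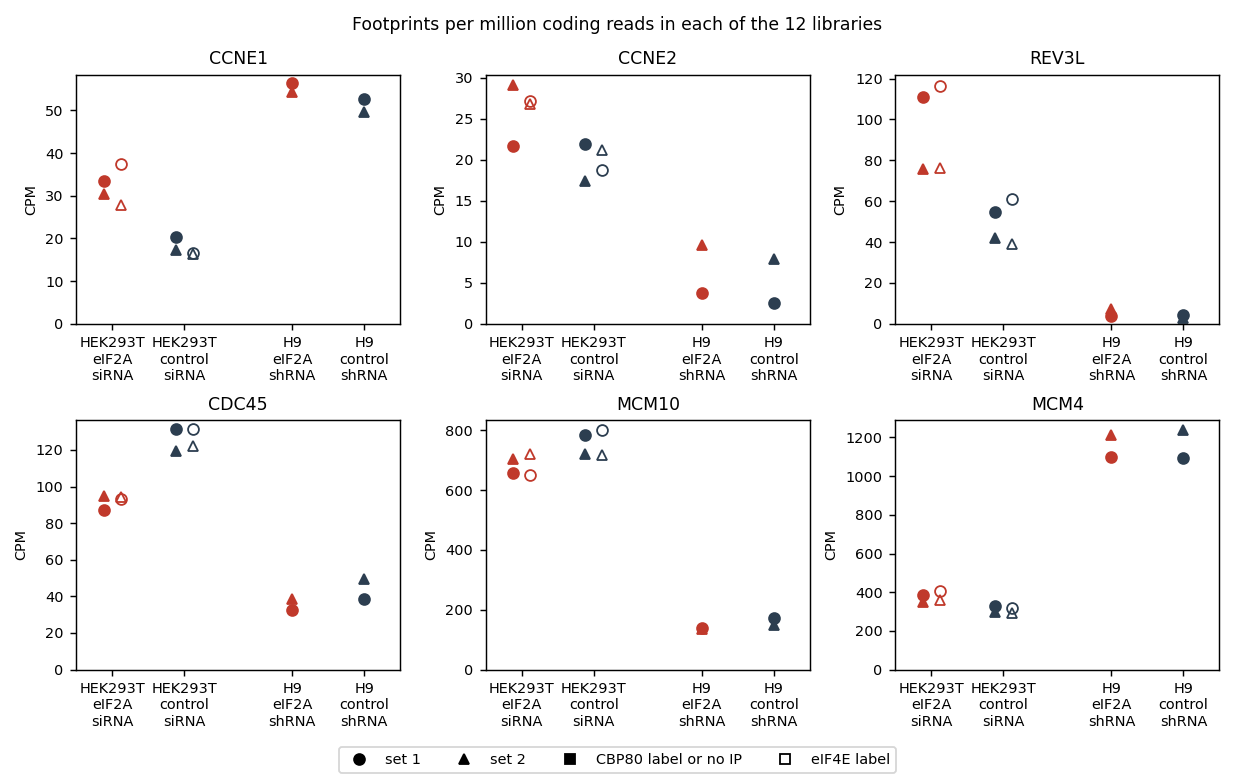
Footprint level in CPM (y axis, from 0) of CCNE1, CCNE2, REV3L, CDC45, MCM10 and MCM4 in each of the 12 libraries, by label (x axis). Circles are set 1, triangles set 2, and open symbols the eIF4E label. In HEK293T, CCNE1 and REV3L lie higher and CDC45 lower with the eIF2A siRNA label, while MCM10 and MCM4 separate the cell lines.

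The other 39 genes did not pass in the HEK293T fit without a block, and most of their estimates lay below 0. Over all 42, the median log2 change was -0.121 against 0.004 over all genes tested, and 11 of 42 estimates lay above 0 against 50.5% of all genes. With library sizes alone as the scaling, 18 of 42 lay above 0 and the median was -0.037, against 60.9% and 0.092 over all genes. Under that scaling the calls over all genes were 740 higher and 292 lower, against 758 higher and 776 lower with TMM scaling. Among the 12 licensing factors, estimates ran from -0.33 for MCM3 to 0.25 for ORC2, with none called in this fit. MCM3, a subunit of the ring, stood at 684.3 and 676.4 CPM with the eIF2A siRNA label, against 822.3 and 791.8 CPM in control (-0.33 ± 0.14 log2 units, SE, edgeR adjusted p = 0.108). MCM4, another subunit of the same ring, stood at 394.6 and 355.2 CPM, against 323.5 and 294.1 CPM in control (0.19 ± 0.14, edgeR adjusted p = 0.384). These neighbours in 1 complex thus had estimates of opposite sign, and their difference was not tested. MCM2, also of the ring, was at 983.8 and 1029 CPM with the eIF2A siRNA label, against 991.2 and 1114 CPM in control (-0.15 ± 0.15, edgeR adjusted p = 0.539).

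Beside CDC45, the helicase-activating factors had estimates from -0.34 for the GINS subunit GINS2 to -0.05 for GINS1. MCM10, which helps to switch the helicase on, was at -0.23 ± 0.14 (SE, edgeR adjusted p = 0.3). Its library of set 1 labelled eIF2A siRNA held 654.4 CPM and that of set 2 712.3 CPM, against 792.7 and 719.7 CPM in control, so only set 1 was clearly lower. PCNA, the sliding clamp, went opposite ways in the sets, at 914.6 and 1099.6 CPM with the eIF2A siRNA label against 999.5 and 1049 CPM in control. Its fitted change was -0.11 ± 0.15 (SE, edgeR adjusted p = 0.686). The clamp loader subunits ran from -0.16 for RFC3 to 0.25 for RFC1, its large subunit. The single-strand binding subunits were at -0.24 (RPA1), 0.04 (RPA2) and 0.06 (RPA3). Among polymerases and primase, the delta subunits POLD1 and POLD2 had the lowest estimates, -0.33 and -0.36, and the primase subunit PRIM1 the highest, 0.18. The flap nuclease FEN1 and the ligase LIG1, which finish the lagging strand, were both at -0.32 (edgeR adjusted p = 0.106 and 0.104). The subunits of ribonucleotide reductase, which makes deoxynucleotides, were at -0.14 (RRM1) and -0.31 (RRM2). The summed share of all 42 genes was 0.985 and 1.01% of coding reads with the eIF2A siRNA label, against 1.04 and 1.03% in control. The fibroblast marker TAGLN also moved with the label, at 4.8 and 2.9 CPM with the eIF2A siRNA label against 1.3 and 1.4 CPM in control (edgeR adjusted p = 0.00505). It was 1 of 4 fibroblast markers tested to pass, and the 6 listed summed to 26.8 and 21.2 CPM, against 20.7 and 21.7 CPM in control. In bulk libraries, fewer cells in S phase and fewer footprints per cell cannot be told apart.

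Within each set, 1 summed library stands for each label, so ratios carry counting error only (exact 95% intervals) and no replicate check. By that measure 12 genes were higher and 19 lower in set 1, and 14 higher and 16 lower in set 2, when ratios use total coding reads. Among genes of any kind holding 20 reads or more in a pair, intervals left out 1 for 32.6% higher and 15% lower in set 1, and for 26.4% higher and 18.1% lower in set 2. Intervals lay above 1 in both sets for 8 genes, MCM4, MCM7, ORC2, RFC1, RPA3, PRIM1, CCNE1 and REV3L. They lay below 1 in both sets for 13, namely MCM3, MCM5, MCM6, CDC45, CDC6, GINS2, RPA1, POLA1, POLA2, POLD2, FEN1, LIG1 and RRM2. PCNA alone left 1 on opposite sides. In the TMM-scaled fit MCM7 was at -0.007 in log2 units, while the others of the 8 stayed above 0. How many of all genes left 1 on the same side in both sets was not counted. The counts of 8 and 13 therefore have no background to be read against. In set 1 the REV3L ratio was 1.96 (1.78 to 2.16), and in set 2 it was 1.86 (1.65 to 2.1). CCNE1 had 1.92 (1.61 to 2.29) and 1.72 (1.42 to 2.09). CDC45 had 0.686 (0.631 to 0.746) and 0.782 (0.719 to 0.851). As a description across the 42 genes, log2 ratios of set 1 and set 2 correlated at r = 0.837, and at 0.707 without REV3L and CCNE1. The sets do not share libraries, but both carry the siRNA label and the differing share of reads outside coding sequences. Counted by groups that do not overlap, 9 of 42 genes lay higher and 17 lower, where 35.9% and 20.6% of all genes did.

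**Figure D2:**
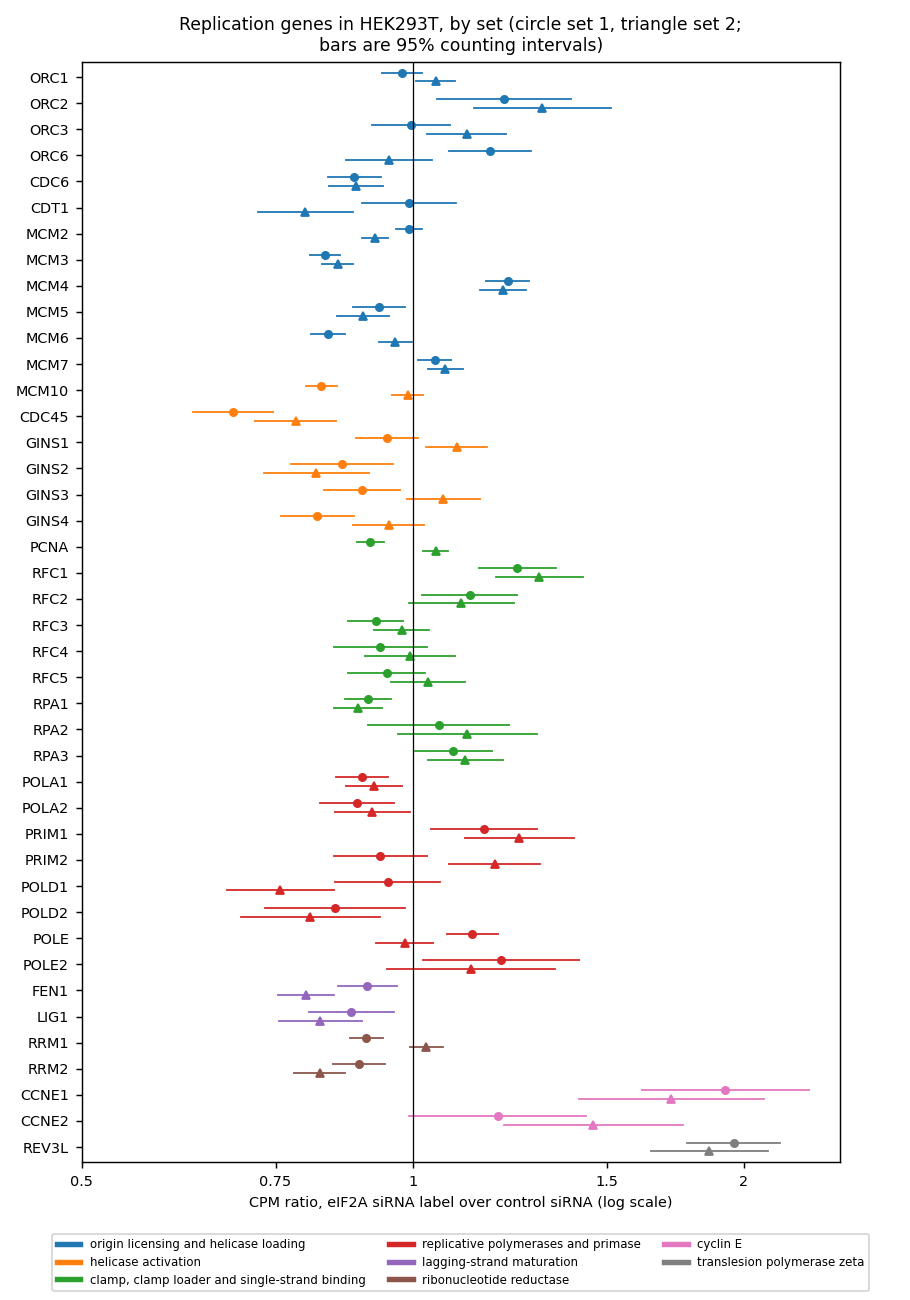
Ratio of CPM, eIF2A siRNA label over control siRNA, of the 42 genes in HEK293T (x axis, log scale), with genes down the y axis grouped by role. Circles are set 1, triangles set 2 and bars 95% counting intervals. CCNE1 and REV3L stand farthest to the right, CDC45 in set 1 (0.686) farthest to the left, and PCNA lies on opposite sides of 1 in the 2 sets.

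Other genes of the pathway, listed by role with earlier results of these data known, are counted here against the 6.15% of all genes that passed higher and the 6.29% that passed lower. Of 32 further replication genes, 1 rose and 4 fell in HEK293T. ATAD5, which helps to unload PCNA, rose by 0.43 on the log2 scale. CHTF8 of an alternative clamp loader fell by 0.54, RNASEH2A, a subunit of the nuclease that removes RNA from DNA, by 0.47, and the histone chaperone ASF1B by 0.46 (edgeR adjusted p from 0.00735 to 0.0249 for the 4). CDC7, the kinase that phosphorylates the MCM ring, fell by 0.39 (edgeR adjusted p = 0.0391). Of 10 genes of deoxynucleotide supply, NME1, a nucleoside diphosphate kinase, fell by 0.5 and the dUTPase DUT by 0.46, and none rose. Of 18 regulators of S-phase entry, RBL1, the retinoblastoma relative p107, rose by 0.57 and none fell. None of 7 other translesion factors passed, and their median was 0.12 against 0.004 over all genes. Of 20 mitosis genes, UBE2C, a ubiquitin-conjugating enzyme of anaphase, fell by 0.41 and none rose.

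None of the 42 genes passed the test between the CBP80 and eIF4E labels in edgeR (0% of 11778 genes passed, with 0 replication genes and 99 genes in all at an unadjusted p under 0.05). DESeq2 called 1 gene of all (0.00849%) and none of the 42. The matched libraries deviated together (r = 0.508 to 0.609 across genes), which these fits leave out. With each siRNA and set as a block, 4 of 11422 genes (0.035%) passed and again none of the 42. At an unadjusted p under 0.05 were then 2 replication genes and 554 genes in all. Without the block, estimates ran from -0.14 ± 0.1 for RFC5 (SE), a clamp loader subunit, to 0.09 ± 0.12 for CCNE1. RFC5 stood at 103.4 and 124.5 CPM with the CBP80 and eIF2A siRNA labels, against 120.9 and 134.2 CPM with eIF4E and eIF2A siRNA. In control siRNA it stood at 111.9 and 122.1 CPM with CBP80, against 124.6 and 129.5 CPM with eIF4E. All 4 pairs had the lower value with CBP80, and with each siRNA and set as a block the estimate was -0.14 ± 0.04 (SE, edgeR adjusted p = 0.786). RFC5 was named for the smallest p-value among the 42 in these libraries, so the agreement of its pairs is no separate support. The next smallest p-values belonged to PRIM2, a primase subunit (-0.12 ± 0.11), and GINS2 (-0.08 ± 0.08). Pair by pair, counting intervals left out 1 for 4 (set 1) and 3 (set 2) of the 42 genes with eIF2A siRNA, where 4.49% and 4.44% of all genes did, and for 2 and 3 with control siRNA, where 4.28% and 4.87% did.

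In H9, no replication gene passed the test between eIF2A shRNA and control shRNA in edgeR (0% of 9751 genes passed, with 0 of 41 replication genes and 84 genes in all at an unadjusted p under 0.05), and DESeq2 called none either. The edgeR fit counts the difference between sets as spread, so its SEs may be too wide. With the set as a block again none passed (0% of 9751 genes). At an unadjusted p under 0.05 were then 1 of 41 replication genes and 493 genes in all. REV3L, with 4 to 7 reads a library, was not tested. CDC45 stood at 32.5 and 38.4 CPM with eIF2A shRNA, against 38.7 and 49.6 CPM in control. Its groups lay apart by a small gap, and the change of -0.34 ± 0.24 on the log2 scale did not pass (SE, edgeR adjusted p = 1). MCM10 stood at 140.5 and 135.4 CPM with eIF2A shRNA, against 171.2 and 148.2 CPM in control. These groups also lay apart, but -0.21 ± 0.15 did not pass (edgeR adjusted p = 1). ORC3, a subunit of the origin recognition complex, was at -0.18 ± 0.16. CCNE1 stood at 56.4 and 54.4 CPM with eIF2A shRNA, against 52.6 and 49.6 CPM in control (0.12 ± 0.19, edgeR adjusted p = 1). Groups did not overlap for 3 genes higher and 4 lower of 41, where 12% and 11.7% of all genes did.

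Without the set as a block, the changes under eIF2A labels were not shown to differ between the cell lines. In a joint fit the HEK293T change minus the H9 change had 0 of 12911 genes past the threshold in edgeR (0%), and 2 of 42 replication genes and 1062 genes in all at an unadjusted p under 0.05. DESeq2 called none. With the set as a block 4.42% of all genes passed, among them 2 of the 42, CCNE1 and MCM3. Without the block, CCNE1 differed by 0.67 ± 0.26 in log2 units (SE, edgeR adjusted p = 0.513), POLD2 by -0.63 ± 0.3 (0.58) and FEN1 by -0.42 ± 0.21 (0.62). With 1 library left out POLD2 ran from -0.96 without the set 1 H9 control to -0.07 without the set 1 H9 library labelled eIF2A shRNA, and FEN1 from -0.60 to -0.25. siRNA and shRNA, arsenite and the IP go with the cell line, so their parts cannot be told apart.

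The cell lines themselves differed far more. Between control libraries, 12 of 42 genes were higher and 18 lower in H9 than in HEK293T, where 34.5% and 37.3% of 12307 genes tested were, so the share of 30 of 42 was near the background of 71.8%. Across settings 26 to 33 passed, with 26 in DESeq2 (61% of all genes) and without the set 2 HEK293T control (65.9%), and 33 with all 4 libraries of each line (79.1%). Groups did not overlap for 17 genes higher and 17 lower, where 45% and 40.5% of all genes did. Cell line, arsenite, IP and depth go together in this comparison and cannot be told apart. Of 5 fibroblast markers tested, COL1A1, COL1A2 and TAGLN were higher in H9 and LUM, at 0 there, was lower, while DCN was also at 0 in H9. The 6 listed summed to 526.9 and 780.2 CPM in H9 control against 20.7 and 21.7 CPM in HEK293T control, and their part was not tested. With library sizes alone the median of all genes was 0.091, against -0.067 with TMM scaling, and 15 of the 42 were higher and 16 lower (38.6% and 33.1% of all genes). Of the 6 factors that activate the helicase, 5 were lower in H9, where 37.3% of all genes were, and the median of the 6 was -1.374 on the log2 scale against -0.067 over all genes. MCM10 stood at 171.2 and 148.2 CPM in H9 control shRNA, against 792.7 and 719.7 CPM in HEK293T control siRNA (-2.4 ± 0.15, SE, edgeR adjusted p = 9.41e-54). GINS3 stood at 32.3 and 35.7 CPM in H9, against 124.5 and 126.6 CPM in HEK293T (-2.04 ± 0.19). CDC45 stood at 38.7 and 49.6 CPM in H9, against 131.2 and 120.8 CPM in HEK293T (-1.67 ± 0.19). GINS4 and GINS1 were lower by 1.08 and 0.5 on that scale, while GINS2, at 87.5 and 68.8 CPM in H9 against 71.4 and 70.4 CPM in HEK293T, was at -0.02 and did not pass. ORC1, the large subunit of the origin recognition complex, stood at 191.5 and 165.4 CPM in H9, against 430.6 and 442.7 CPM in HEK293T (-1.45 ± 0.15).

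Of the 12 licensing factors 4 were higher and 4 lower in H9, where 34.5% and 37.3% of all genes were. These counts were near the background. MCM4 stood at 1091 and 1241 CPM in H9, against 323.5 and 294.1 CPM in HEK293T (1.76 ± 0.14 log2 units, SE, edgeR adjusted p = 8.53e-35), a 3.39-fold difference. MCM5, also a subunit of the ring, stood at 730.4 and 631.3 CPM in H9, against 260.9 and 263.7 CPM in HEK293T (1.22 ± 0.14). MCM2 went the other way, at 634.7 and 595.6 CPM in H9 against 991.2 and 1114 CPM in HEK293T (-0.93 ± 0.14). MCM7 and MCM3 did not pass, and MCM6 was lower by 0.33 on the log2 scale. ORC2 stood at 106.5 and 91.3 CPM in H9, against 34.6 and 33.7 CPM in HEK293T (1.38 ± 0.18), so the origin recognition complex also held subunits that differed in opposite directions. CDT1, the MCM loader, was higher by 0.59.

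The cyclins E separated the cell lines in opposite directions. CCNE1 stood at 52.6 and 49.6 CPM in H9, against 18.5 and 16.9 CPM in HEK293T (1.37 ± 0.21 log2 units, SE, edgeR adjusted p = 8.99e-11), a 2.58-fold difference. CCNE2 stood at 2.5 and 7.9 CPM in H9, against 20.4 and 19.2 CPM in HEK293T (-2.08 ± 0.35), where H9 values rest on 4 and 12 reads. That estimate was -1.43 without the set 1 H9 control and -3.11 without that of set 2. REV3L stood at 4.4 and 2.6 CPM in H9, from 7 and 4 reads, against 58 and 40.8 CPM in HEK293T (-3.95 ± 0.33), the lowest log2 value among the 42 genes. Of the catalytic polymerase subunits, POLD1 stood at 173.7 and 156.2 CPM in H9, against 64.8 and 70.5 CPM in HEK293T (1.13 ± 0.16). POLE, that of the leading-strand enzyme, stood at 109.1 and 131 CPM in H9, against 248.2 and 216.8 CPM in HEK293T (-1.11 ± 0.16). LIG1 stood at 187.7 and 246.8 CPM in H9, against 100.1 and 110.7 CPM in HEK293T (0.89 ± 0.15). RRM2, the cell cycle-regulated subunit of ribonucleotide reductase, was higher in H9 by 0.72 and RRM1 lower by 0.84. The summed share of the 42 genes was nonetheless alike, 1.01 and 1.04% of coding reads in H9 control, against 1.04 and 1.03% in HEK293T control.

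**Figure D3:**
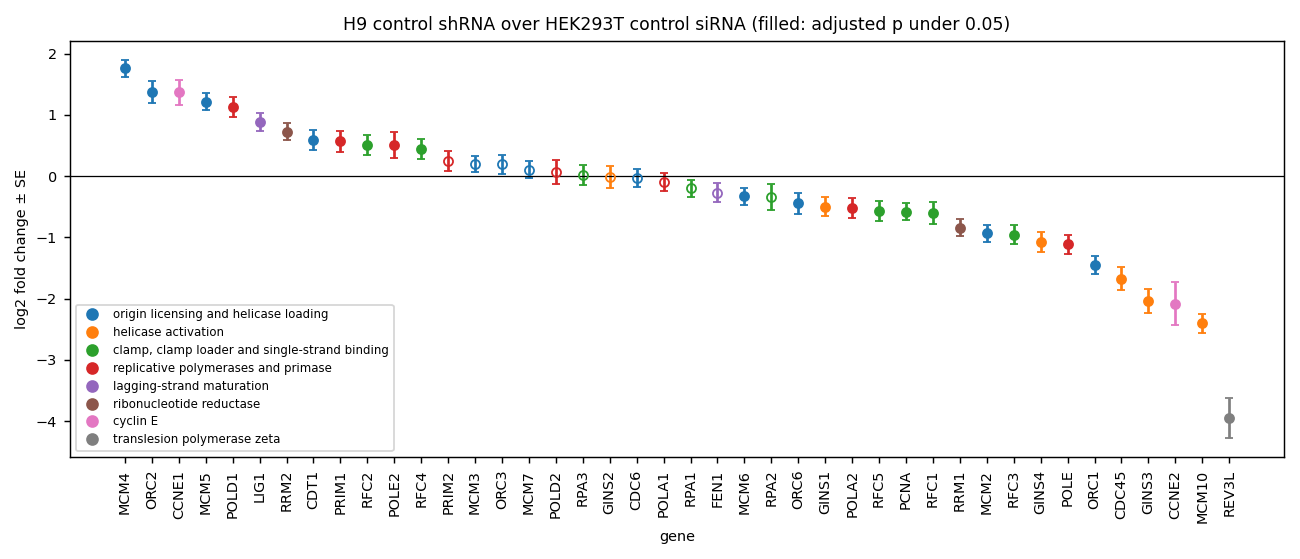
Log2 fold change ± SE (y axis) of the 42 genes, H9 control shRNA over HEK293T control siRNA, ordered by size along the x axis and coloured by role. Filled points passed an adjusted p of 0.05. MCM4, at 1.76, is the highest, and MCM10, CCNE2, GINS3 and CDC45 lie near the low end with REV3L at -3.95.

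The H9 libraries also differed by set, with the shRNA labels of a set close to each other. Of the 40 genes with at least 40 H9 reads, which leaves out CCNE2 and REV3L, 13 lay higher in both set 2 libraries than in both set 1 libraries and 13 lower, where 24.2% and 29.7% of the 9561 genes with that many reads did. The sets are no condition of the study, so no test was run. RPA1, the large subunit of the single-strand binding complex, stood at 198.3 CPM (eIF2A shRNA) and 182.6 CPM (control) in set 2, against 473.7 and 443.8 CPM in set 1. Its partners RPA2, at 24.5 and 24.5 CPM in set 2 against 35.1 and 35.5 CPM in set 1, and RPA3, at 122.6 and 114.5 against 153.3 and 145.8 CPM, were lower by less. RFC1 stood at 50.1 and 41 CPM in set 2, against 78.2 and 95.1 CPM in set 1. PCNA, the ring that RFC1 helps to load, stood at 879.5 and 878.8 CPM in set 2, against 620.1 and 645.5 CPM in set 1. RRM2 stood at 599.2 and 580.4 CPM in set 2, against 454 and 448.9 CPM in set 1, and MCM3 at 1225 and 1140 CPM against 943.7 and 920.7 CPM. In HEK293T controls RPA1 differed little by set, at 315.7 CPM in set 2 and 328.6 CPM in set 1.

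**Figure D4:**
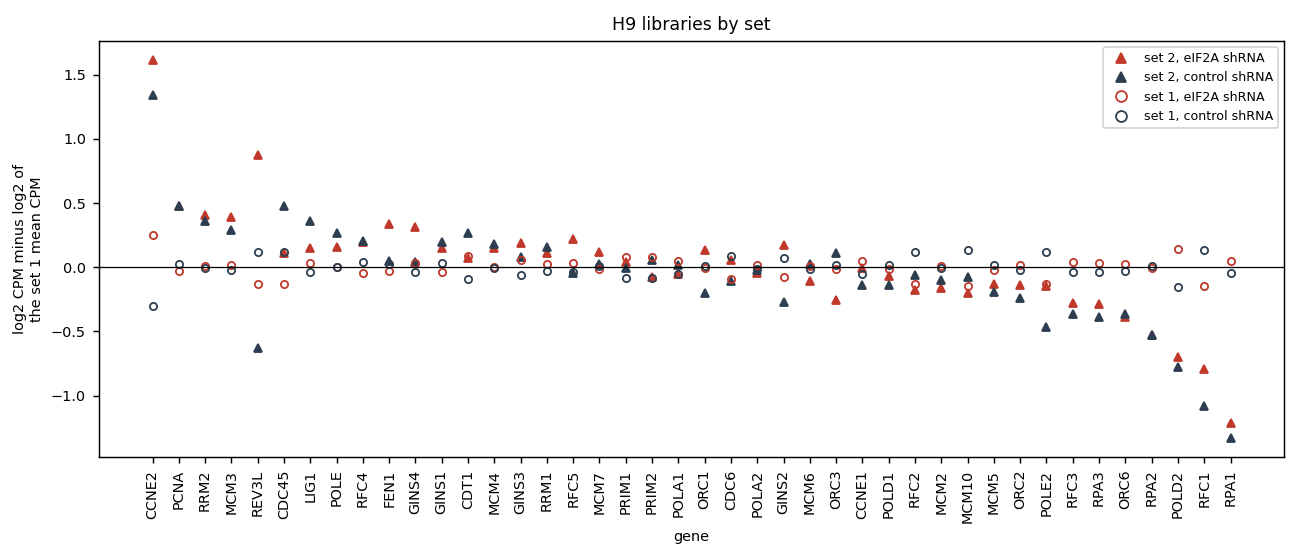
H9 libraries by set: log2 CPM of each gene minus the log2 of its mean CPM in set 1 (y axis), genes along the x axis ordered by the difference between sets. Triangles are set 2, open circles set 1, red eIF2A shRNA and dark control shRNA. RPA1 and RFC1 lie lowest in set 2, while the labels of a set lie close together for most genes. CCNE2 and REV3L, toward the left, rest on 4 to 12 reads a library.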

How the data were processed

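Per the submitters' processing notes, reads were handled with cutadapt and STAR 2.5.2b on the build hg19. The authors deposited raw read counts of coding sequences, in whole numbers and with 1 RefSeq transcript a row. Counter, strand setting and annotation release: not given in the sources used here. Rows naming no gene, mostly reads with several alignments, held 87.5 to 89.5% of counts in HEK293T and 96.2 to 96.5% in H9 and were left out. Of 19305 rows 18888 were named through RefSeq (GRCh38.p14, names only). 9 of the 42 genes have named pseudogenes (PCNA has 4, RPA2 and RRM2 have 3) and may be undercounted, and 8 overlap another coding gene, whose reads cannot be told apart without strand.

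Groups and sets came from the sample titles. CPM uses total coding reads. Tests used R 4.3.3 and edgeR 4.0.16 (filterByExpr, TMM, estimateDisp, robust glmQLFit, glmQLFTest) on raw counts, with Benjamini-Hochberg adjustment over all genes and a threshold of 0.05. SE is the log2 change over the square root of F. Summed HEK293T, H9 and control-only fits each held 4 libraries and 2 residual degrees of freedom, so they lean on a spread shared across genes (median prior degrees of freedom 97 in HEK293T, 7.03 in H9 and infinite between cell lines). Ratios carry exact 95% intervals for counting error only. On simulated counts with 200 genes changed 2-fold, 82% were recovered in the HEK293T fit (12355 genes), 65% in H9 (9733) and 63.5% between cell lines (12267), with 5.75, 2.99 and 5.22% of calls false. The simulated spread was fixed (dispersion 0.01) with no difference between sets, unlike the real libraries, so these rates may not hold for them. Smaller changes were not simulated.

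Set deviations correlated at 0.432 between siRNA labels, 0.344 between shRNA labels and -0.011 between cell lines, with 2 pairs each, which was not taken as pairing. The fits within a cell line therefore count the difference between sets as spread, and their SEs may be too wide. The 4 CBP80 and eIF4E pairs (0.508 and 0.609) were, but only in the fit with each siRNA and set as a block. The main fit of IP labels had no block. Members, gene lists, tests and the rule for named genes were chosen with earlier results of these data known. The rule takes EIF2A, the members past the threshold plus REV3L, CCNE1, CCNE2, CDC45, PCNA and MCM2 in HEK293T, the 3 of smallest p where none passed, and the 6 largest rises and falls between cell lines. Per further list it takes at most 3 genes each way. Other members and CDC7 are named to account for all. Alternatives were RLE scaling, library sizes alone, DESeq2 1.42.0, no filter or a mean count of at least 50, each library left out, the set as a block, single IP labels and 8 separate libraries. TAGLN was chosen after its values were seen.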

Additional observations from a re-analysis of the deposited data

How the results depend on the processing

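The HEK293T count of 3 replication genes was also 3 with RLE scaling, library sizes alone, no filter, a mean count of at least 50, CBP80-labelled or eIF4E-labelled libraries alone, and 4 in DESeq2, which added MCM3. Leaving out 1 library gave 0 to 5. It was 13 with the replicate block and 13 with 8 libraries as separate samples, where 24.3% and 22.9% of all genes passed. The block added RFC1 as higher and CDC6, MCM3, GINS2, GINS4, POLD1, POLD2, FEN1, LIG1 and RRM2 as lower (edgeR adjusted p from 0.0112 to 0.0488). Over all genes, 1534 passed in the HEK293T fit as reported, 735 in DESeq2, 863 with CBP80-labelled libraries alone, 2993 with the block, 2702 with separate samples and 75 to 2086 with 1 library left out. In the separate-sample fit near-identical libraries count more than once, and the set numbers were not taken to pair the HEK293T libraries. CCNE1, REV3L and CDC45 kept their direction under all 13 alternatives, from 0.67 to 0.9, 0.58 to 1.1 and -0.63 to -0.45 on the log2 scale. Their groups did not overlap, so leaving out a library could hardly turn the sign, and the kept direction is no separate support. EIF2A turned to 0.060 without the set 2 library labelled eIF2A siRNA and was at -0.88 without that of set 1 (edgeR adjusted p = 0.000243). PCNA turned to 0.062 without the set 1 library labelled eIF2A siRNA and ranged down to -0.31. PRIM2 between IP labels turned to 0.021 without set 2 and was at -0.25 without set 1. The H9 shRNA and IP-label counts stayed at 0. The count between cell lines ran from 26 to 33. The difference between cell lines in the eIF2A-label change had 2 genes with the replicate block, CCNE1 (0.67, edgeR adjusted p = 0.0471) and MCM3 (-0.39, 0.018), and 571 genes in all against 0. Alternatives with coding-length offsets were not run, since no coding lengths were used here, so whether changes follow length was not tested. In H9, REV3L and CCNE2 held 4 to 12 reads a library, so counting error is large there.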

Other observations

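Genes around the replication machinery also differed between the cell lines' control libraries, in edgeR's quasi-likelihood test and with cell line, arsenite and IP not separable. Of all genes 71.8% passed there, 34.5% higher and 37.3% lower, and the list counts are read against that share. Of 18 regulators of S-phase entry 9 were higher and 4 lower in H9, near that background. CCND2, which encodes cyclin D2, stood at 232.1 and 338.8 CPM in H9, against 58.9 and 56.6 CPM in HEK293T (2.15 ± 0.16 log2 units, SE, edgeR adjusted p = 4.03e-42). CDKN1B, an inhibitor of cyclin-dependent kinases, was higher by 1.47 and CDK4, the partner of D cyclins, by 1.35. CDK2, the kinase that cyclin E binds, stood at 52.6 and 41.7 CPM in H9, against 137.8 and 170.4 CPM in HEK293T (-1.87 ± 0.18), and E2F2 was lower by 1.3.

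Of 7 other translesion factors 2 were higher and 3 lower in H9. POLK, a translesion polymerase, stood at 5.7 and 9.3 CPM in H9, against 103 and 97 CPM in HEK293T (-3.9 ± 0.26, SE, edgeR adjusted p = 1.19e-47), and POLH was lower by 1.83. MAD2L2, the Pol zeta subunit that binds REV3L, stood at 214.3 and 189.3 CPM in H9, against 32.3 and 36.4 CPM in HEK293T (2.4 ± 0.17), and POLI was higher by 1.99. Of 9 tested genes of deoxynucleotide supply 3 were higher and 4 lower, among them the p53-induced reductase subunit RRM2B (1.18) and thymidylate synthase TYMS (0.97), and DCTPP1 (-1.42). Of 20 mitosis genes 7 were higher and 6 lower. Of 32 further replication genes 6 were higher and 9 lower, with RNASEH2B at 1.76 and TIPIN, a fork protection factor, at -2.35.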
